A study of Homo sapiens with 12 samples.

Results

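Antibodies to PD1 and LAG3 given together were compared with isotype control antibodies at 3 matched doses, in a co-culture of 2 human lymphocyte lines. The comparison takes 6 of the 12 libraries of the series: 3 with anti-PD1 (MK3475) plus anti-LAG3 (MK4280), called the combination here, and 3 with isotype plus isotype. Each antibody was present at 1, 0.1 or 0.01 µg/ml, so every combination library has 1 isotype library of the same dose, and no condition has a replicate. All 6 co-cultures paired a Jurkat line labelled as carrying LAG3 and PD1 with a Raji line labelled as carrying PDL1. The Jurkat cells met the antibody first and then, for 24 h, Raji cells loaded with SED, a superantigen, at 100 ng/ml. Several wells were pooled for each library, so a library holds the RNA of both lines, and fewer cells of a line and less RNA per cell cannot be told apart. The p-values of the gene tests below therefore set a difference against the scatter of all 12 libraries around fitted models of dose. That scatter includes any dose response that the models do not follow, and it may be technical.

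Jurkat is a leukaemia line with features of an immature T cell, and Raji is a Burkitt lymphoma line of B cells. PD1 and LAG3 are inhibitory receptors of T cells: PD1 binds PDL1, and LAG3 binds, among other ligands, the MHC class II molecules that superantigens also use. Engagement of the T cell receptor (TCR) starts calcium, MAP kinase and NF-kB signalling, which switch on immediate early transcription factors, then surface antigens such as CD69 and cytokines, along with feedback inhibitors. Antibodies that block either receptor are used to relieve its inhibition of TCR signalling.

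The combination libraries held 25808464 to 28709956 counts and the isotype libraries 26457020 to 36581754, the highest at 1 µg/ml. A count of 0 allows up to 3 counts, or 0.0838 to 0.117 CPM (counts scaled to a common library total), in these libraries. Both lines were present in each library: all 26 T markers and all 30 B markers passed the filter on low counts, with summed T markers at 1920 to 2405 CPM and summed B markers at 10078 to 11453 CPM. Of other cell types, 0 of 10 monocyte markers reached 1 CPM on average and their sum was 1.79 to 2.33 CPM. Of 8 NK markers 2 did (NCAM1 and NKG7, summed list 5.15 to 6.69 CPM), while NCR1 and KLRC1 had no count in any of the 6 libraries. Of 10 epithelial and stromal markers 2 did, COL1A1 and PECAM1, an adhesion molecule that leukocytes also carry, with the list summing to 49.9 to 57.1 CPM. The sums of these 3 lists overlapped between the arms, and none of their tested members was called at 1 µg/ml. The mean log2 CPM of T markers minus that of B markers was -1.79 ± 0.056 (SD, n = 3) with the combination and -1.85 ± 0.023 with isotype. The difference was 0.0605 (exact permutation test, two-sided p = 0.2), where 3 against 3 cannot go below 0.1. By the median of the markers it was -0.0952.

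Of the targeted molecules, PD1 and PDL1 RNA gave no call between the arms and LAG3 RNA was too rare to compare. PDCD1, the gene of PD1, stood at 215, 195 and 220 CPM with the combination at 1, 0.1 and 0.01 µg/ml, and at 218, 191 and 179 CPM with isotype. Its arm mean differed by 0.10 ± 0.055 log2 (SE; adjusted p = 0.8). CD274, which encodes PDL1, stood at 97.8, 95 and 85.1 CPM against 88.5, 93.4 and 93.3 CPM, an arm difference of 0.015 ± 0.056 (adjusted p = 0.996). The arms overlapped for both genes. LAG3 had 0 to 2 counts in each of the 6 libraries, although the Jurkat line is labelled LAG3+, so a difference in LAG3 RNA was not detectable at this depth. The cytokine genes IL2 and IFNG had 0 to 4 counts per library and were not tested.

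Genes of T cell activation such as EGR1, CD69 and XCL1 rose with the combination at the highest dose, and genes of immature thymocytes such as ADA and DNTT fell, while few genes differed at the lowest dose. Of 15535 genes tested, 898 were called at 1 µg/ml (5.78%), 433 higher than isotype (2.79%) and 465 lower (2.99%). A call is a Benjamini-Hochberg adjusted p under 0.05 from the quasi-likelihood test of edgeR, here from a line through the 3 doses of each arm. The called genes differed by a median of 0.49 log2 upward and -0.49 log2 downward, and 108 rose and 72 fell by at least 1 log2. At 0.01 µg/ml the same lines called 16 genes (0.103%), 15 higher and 1 lower. DESeq2 called 14 higher and 2 lower there, 13 of them among these 16. By the edgeR test 1508 genes had an unadjusted p under 0.05 at that dose.

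The difference at each dose was also taken directly, as log2 CPM of the combination library minus the isotype library of that dose, a value with 1 library a side and no test. It reached 1 log2 in 587 genes at 1 µg/ml (3.78%), 290 of them higher (1.87%) and 297 lower (1.91%). The count was 363 at 0.1 µg/ml (2.34%; 0.875% higher and 1.46% lower) and 321 at 0.01 µg/ml (2.07%; 0.863% higher and 1.2% lower). For the 433 genes called higher at 1 µg/ml its median was 0.49, 0.18 and -0.043 at 1, 0.1 and 0.01 µg/ml. For the 465 called lower it was -0.49, -0.13 and 0.15. The change of the difference from 0.01 to 1 µg/ml was itself called in 719 genes (4.63%), upward in 284 (1.83%) and downward in 435 (2.8%). In the called direction, the difference fell from each dose to the next lower in 399 of the 433 and 456 of the 465. Both counts rest on the doses that chose the genes and are given as a description.

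Averaged over the 3 doses, 1 gene or 231 genes were called, depending on what was counted as spread. The arm mean was tested in a model with dose as a factor, in which a difference that changes with dose counts as spread. It called 1 gene of 15535 (0.00644%), SLC6A13, and 1037 genes had an unadjusted p under 0.05. DESeq2 called 18. The middle dose of the fitted lines is the centre of the 3 doses, so the difference there is close to the same average. With the linear dose response taken out of the spread in this way, the same libraries gave 231 called genes, 160 higher and 71 lower.

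The libraries at 1 µg/ml carried most of the calls. Without the isotype library at 1 µg/ml, 77 genes were called at that dose, 48 higher and 29 lower, and 76 of them were among the 898. Its value was then extrapolated from the isotype libraries at 0.1 and 0.01 µg/ml. Without the combination library at 1 µg/ml, 123 genes were called, 71 higher and 52 lower, and 115 of them were among the 898. Without any 1 of the other 10 libraries the count was 705 to 1101, and DESeq2 called 373.

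**Figure D1:**
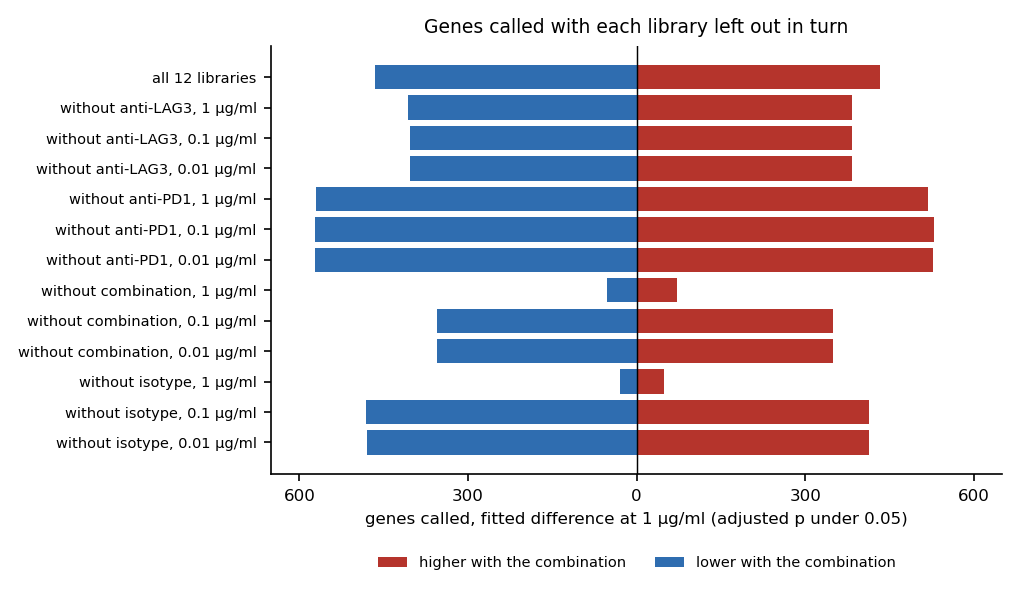
Genes called for the fitted difference at 1 µg/ml (bars, x axis, genes higher to the right and lower to the left) with all 12 libraries and with each library left out in turn (y axis). The bars shorten from 433 and 465 to 48 and 29 when isotype at 1 µg/ml is left out, and to 71 and 52 when the combination at that dose is.

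The combination library at 1 µg/ml was above all 3 isotype libraries for 424 of the 433 genes called higher, and below all 3 for 404 of the 465 called lower, against 27.4% and 30.1% of all genes tested. The combination library at 0.1 µg/ml was above all 3 for 370 of the 433 and below all 3 for 322 of the 465, against 24.7% and 22.8% of all genes. At 0.01 µg/ml it was above all 3 for 96 of the 433, a share of 22.2% beside 20.8% of all genes. All 6 libraries entered the choice of these genes, so the shares describe them and test nothing.

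TCR-induced transcription factors were the list with the highest median difference at 1 µg/ml. Of 34 tested, 16 rose and 1 fell, against 2.79% and 2.99% of all genes, and the median over all 34 was 0.37, 0.16 and 0.0099 log2 at 1, 0.1 and 0.01 µg/ml. Those 2.79% and 2.99% are the shares to set beside the counts of every list below. Over all genes tested the median stood at -0.0014, -0.0004 and -0.0063. In all 16 that rose, the combination at both 1 and 0.1 µg/ml was above all 3 isotype libraries. Without the isotype library at 1 µg/ml 4 members were called higher, and without the combination library at 1 µg/ml also 4.

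EGR1, a zinc finger factor of the immediate early response on chromosome 5 (GRCh38, 138465490 to 138469315, plus strand), stood at 82.5, 41.2 and 19.7 CPM in the combination libraries and 18.2, 16.9 and 18.6 CPM with isotype. The 3 combination libraries were above the 3 isotype libraries, the lowest dose only just. The ratio was 4.52 (95% interval 4.14 to 4.94, counting error only) at 1 µg/ml, 2.45 (2.19 to 2.73) at 0.1 µg/ml and 1.06 (0.939 to 1.2) at 0.01 µg/ml. The fitted difference at 1 µg/ml was 2.22 ± 0.094 log2 (adjusted p = 2.97e-14), while the arm mean of 1.25 ± 0.36 was not called (adjusted p = 0.577).

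EGR2, of the same family, had 10.7, 3.7 and 1.74 CPM against 2.15, 1.6 and 1.63 CPM, and rose by 2.32 ± 0.22 (adjusted p = 7.21e-08). At 0.01 µg/ml it lay inside the isotype range, and the call ended without the combination library at 1 µg/ml (adjusted p = 0.0627). EGR3, the next member, had 17.2, 6.32 and 1.46 CPM against 2.04, 1.98 and 1.92 CPM and rose by 3.14 ± 0.20 (adjusted p = 4.31e-11), with the lowest dose under every isotype library.

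The NR4A nuclear receptors, which antigen induces, and the small early gene IER3 also rose. NR4A3 had 39.4, 5.4 and 1.91 CPM against 2.21, 1.86 and 1.92 CPM, so that the step from 0.1 to 1 µg/ml was steeper than in EGR1. It rose by 4.10 ± 0.30 (adjusted p = 6.56e-06), a call lost without the isotype library at 1 µg/ml (adjusted p = 0.176). NR4A1, its relative, had 46, 16 and 7.41 CPM against 6.6, 8.31 and 8.29 CPM. It rose by 2.70 ± 0.24 (adjusted p = 0.000321), and this call was lost without either library at 1 µg/ml. Of both NR4A genes only the highest 2 doses stood above the isotype libraries. IER3 had 29.1, 15.2 and 8.42 CPM against 8.97, 9.02 and 8.61 CPM and rose by 1.67 ± 0.13 (adjusted p = 8.97e-10).

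FOS and NFATC1, of the AP-1 and NFAT families, rose too, and MYC fell. FOS, the partner of JUN in AP-1, had 5.09, 2 and 0.904 CPM against 1.01, 0.895 and 0.905 CPM and rose by 2.34 ± 0.30 (adjusted p = 9.18e-06). NFATC1, a calcium-dependent factor, had 92.9, 69.1 and 62.5 CPM against 62.2, 59.5 and 60.7 CPM, with no overlap of the arms, and rose by 0.55 ± 0.08 (adjusted p = 4.37e-05). The FOS and NFATC1 calls ended without either library at 1 µg/ml. MYC, a growth regulator, fell by 0.23 log2 (adjusted p = 0.0104), from 365, 343 and 334 CPM with isotype to 308, 331 and 352 CPM, so its lowest-dose value lay inside the isotype range. That call, too, ended without either library at 1 µg/ml.

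Promoter windows of 300 bases, from 250 before to 50 after a RefSeq start (GRCh38.p14), are shown for 3 genes that rose and held a motif. Windows of other genes that rose, among them FOS, NR4A1, NR4A3, DUSP2, NAB2 and ICOS, held none of the 4 motifs searched. JUND and NFKB2 held a motif as well and are not shown. Capitals mark CArG boxes, which bind serum response factor, in EGR1 and EGR2, and the AP-1 letters TGACTCA, read on either strand, in GZMB, the granzyme B gene described further on. EGR2 has 3 RefSeq windows: the one with a CArG box is shown, and the other two held none of the 4 motifs searched.
EGR1 (chr5:138465229-138465528, plus strand): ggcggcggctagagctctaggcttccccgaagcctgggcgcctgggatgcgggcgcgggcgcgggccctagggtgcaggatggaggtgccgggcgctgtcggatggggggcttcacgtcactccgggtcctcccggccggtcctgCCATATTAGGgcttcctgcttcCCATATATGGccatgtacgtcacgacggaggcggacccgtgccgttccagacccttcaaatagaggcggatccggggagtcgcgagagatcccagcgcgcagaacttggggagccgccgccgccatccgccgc
EGR2 (chr10:62816317-62816616, minus strand): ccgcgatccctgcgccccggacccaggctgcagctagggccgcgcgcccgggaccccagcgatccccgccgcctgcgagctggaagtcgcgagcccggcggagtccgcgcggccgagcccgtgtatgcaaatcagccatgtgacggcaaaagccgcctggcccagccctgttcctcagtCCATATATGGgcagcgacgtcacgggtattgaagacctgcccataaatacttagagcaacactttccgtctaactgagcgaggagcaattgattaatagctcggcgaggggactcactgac
GZMB (chr14:24634141-24634440, minus strand): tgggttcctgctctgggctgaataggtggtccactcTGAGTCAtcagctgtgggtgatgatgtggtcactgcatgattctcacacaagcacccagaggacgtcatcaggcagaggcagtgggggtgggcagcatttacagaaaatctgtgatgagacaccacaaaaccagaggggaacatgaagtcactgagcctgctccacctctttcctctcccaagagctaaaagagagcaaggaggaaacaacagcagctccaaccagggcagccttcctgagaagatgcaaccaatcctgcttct

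A CArG box was found in 1.29% of all 35116 promoter windows, and the AP-1 letters in 4.95%. Of the 433 genes called higher at 1 µg/ml, 303 matched a window by symbol, and 10 of them (3.3%) held a CArG box in at least 1 window, against 6 of 329 matched genes called lower (1.82%) and 1.58% of matched genes tested. The AP-1 letters were in 16 of the 303 (5.28%), in 11 of the 329 (3.34%) and in 4.79% of matched genes tested. The CRE letters TGACGTCA and an NF-kB motif, on either strand, were each in 10 of the 303 (3.3%), against 3.76% and 2.77% of matched genes tested. A match of letters is a description of the window and not a binding site.

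**Figure D2:**
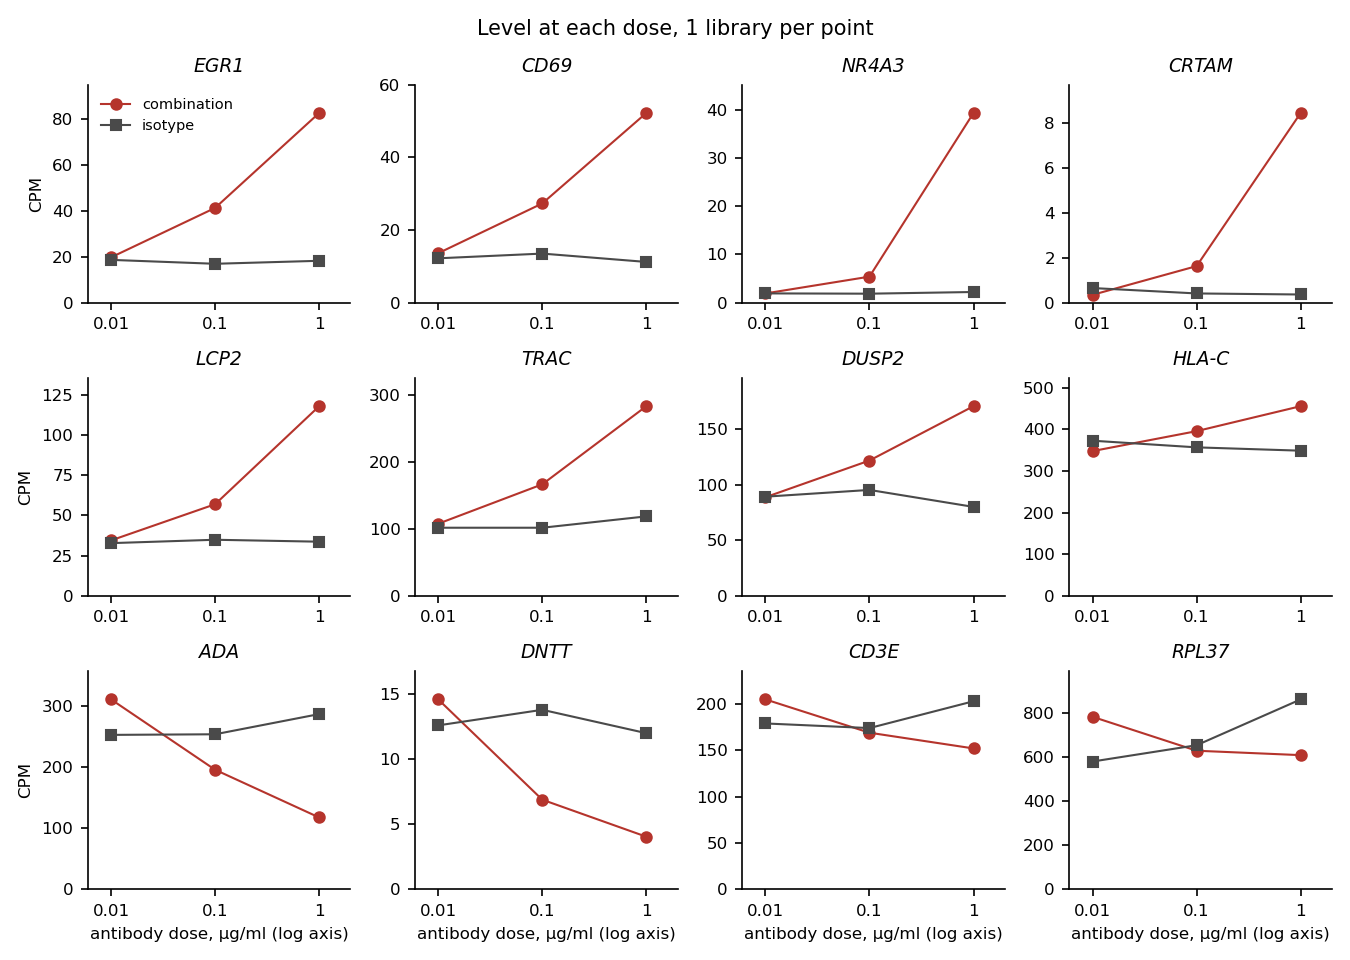
Level in CPM (y axis, from 0) at each antibody dose in µg/ml (x axis, log scale) for 12 genes, with 1 library per point, red circles for the combination and grey squares for isotype. EGR1 and CD69 climb with dose only in the combination arm, ADA and DNTT fall only there, and RPL37 moves in both arms, from 579 to 861 CPM with isotype.

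Activation antigens and feedback regulators, the inhibitors that TCR signalling itself induces, had 17 of 44 tested members called higher and 1 lower at 1 µg/ml. Their median difference was 0.23, 0.10 and 0.025 log2 at 1, 0.1 and 0.01 µg/ml. With isotype at 1 µg/ml left out 6 were called higher, and with the combination at 1 µg/ml left out also 6.

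CD69, a surface antigen of early activation, had 52.2, 27.3 and 13.6 CPM with the combination and 11.2, 13.5 and 12.2 CPM with isotype, so the lowest combination value exceeded the highest isotype value narrowly. The ratio was 4.65 (95% interval 4.15 to 5.21), 2.01 (1.77 to 2.29) and 1.12 (0.962 to 1.29) from the highest to the lowest dose. It was called at 1 µg/ml, at 2.16 ± 0.11 (adjusted p = 2.18e-13), in each of 19 alternative fits as well. SH2D2A, an adaptor of T cells, had 27.1, 11.2 and 5.22 CPM against 5.34, 4.25 and 5.21 CPM, and rose by 2.40 ± 0.17 (adjusted p = 1.5e-10). The combination at 0.01 µg/ml lay among the isotype values.

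Several inhibitors of the same pathways rose beside these antigens. DUSP2, a phosphatase of MAP kinases, had 171, 122 and 88.9 CPM against 80.2, 95.5 and 89.4 CPM and rose by 1.03 ± 0.074 (adjusted p = 3.56e-10). NAB2, a corepressor of EGR factors, had 28.8, 22.1 and 15.9 CPM against 15.2, 16.1 and 17.5 CPM and rose by 0.94 ± 0.10 (adjusted p = 2.88e-07). UBASH3B, a phosphatase that dampens TCR signalling, had 151, 125 and 87.8 CPM against 85.9, 87.3 and 88.2 CPM, and rose by 0.85 ± 0.069 (adjusted p = 3.08e-09). In these 3 genes the combination was above all isotype libraries at 1 and 0.1 µg/ml and not at 0.01 µg/ml. PTPN6, the phosphatase SHP-1, moved less but without overlap, at 104, 94.4 and 89.6 CPM against 81.6, 79.2 and 82.6 CPM, and rose by 0.36 ± 0.065 (adjusted p = 0.000794). SOCS2, an inhibitor of cytokine receptors at about 1 CPM or less, was the member that fell, by 1.84 log2 (adjusted p = 0.0287). The PTPN6 and SOCS2 calls ended without either library at 1 µg/ml.

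**Figure D3:**
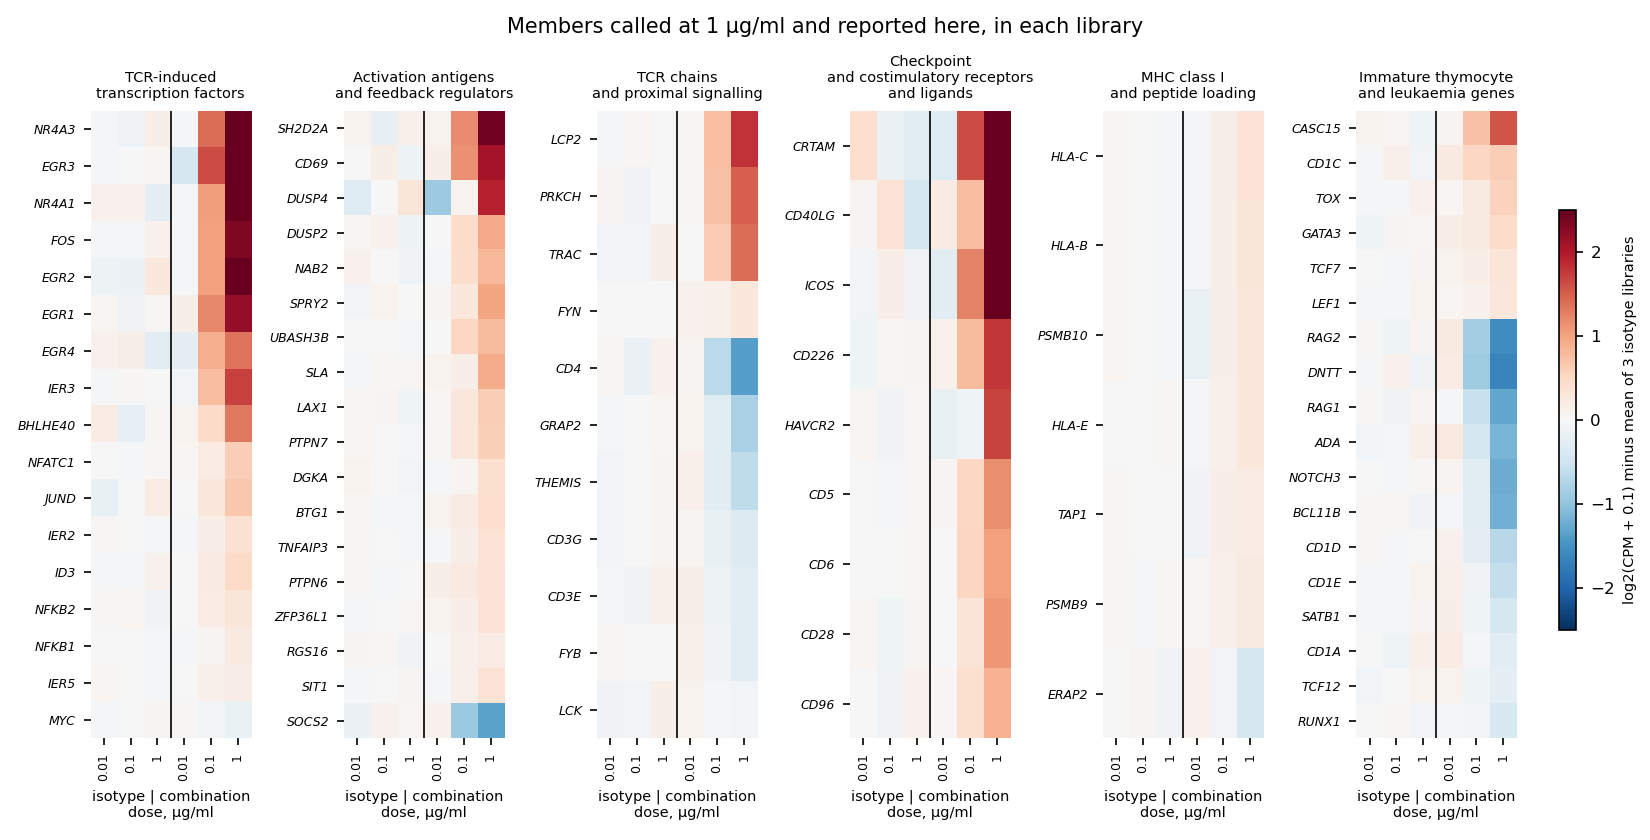
Members of 6 gene lists called at 1 µg/ml and reported here (rows) in the 3 isotype and 3 combination libraries (columns, by dose in µg/ml), coloured by log2(CPM + 0.1) minus the mean of the isotype libraries, with colour saturating at 2.5. The strongest colours are in the combination at 1 µg/ml, weaker ones of the same sign at 0.1 µg/ml in most rows, and the combination at 0.01 µg/ml resembles the isotype columns.

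The TCR and its proximal signalling went both ways, with 5 of 33 tested members called higher and 7 lower at 1 µg/ml and a median of -0.018, 0.035 and 0.089 log2 from the highest dose to the lowest. Without the isotype library at 1 µg/ml 3 were called higher and 2 lower, and without the combination library at 1 µg/ml 4 higher and 2 lower. LCP2, the adaptor SLP-76 (chromosome 5, 170246237 to 170298227, minus strand), had 118, 57 and 34.5 CPM against 33.7, 34.9 and 32.8 CPM. The 2 higher doses stood above every isotype library, and the lowest lay within the isotype range. It rose by 1.74 ± 0.086 (adjusted p = 2.18e-13).

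PRKCH, a protein kinase C, had 128, 75.4 and 46.3 CPM against 45.7, 43 and 47.9 CPM and rose by 1.51 ± 0.073 (adjusted p = 1.5e-13). The alpha chain of the receptor followed: TRAC had 284, 167 and 108 CPM against 119, 102 and 102 CPM, and rose by 1.27 ± 0.072 (adjusted p = 6.69e-12). TRAV8-4, a variable segment of the alpha chain on the same chromosome, had 139, 80.8 and 53.7 CPM against 60.6, 52.5 and 47.8 CPM, and rose by 1.18 ± 0.067 (adjusted p = 4.39e-12). The arms of TRAC and TRAV8-4 overlapped at the lowest dose.

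Of the CD3 chains, which carry the receptor's signal, CD3E and CD3G were lower at 1 µg/ml, while CD3D (0.039 ± 0.071 log2, adjusted p = 0.839) and CD247 (-0.0038 ± 0.081, adjusted p = 0.99) were not called. CD3E had 152, 169 and 205 CPM against 203, 174 and 179 CPM, a fitted difference of -0.39 ± 0.067 (adjusted p = 0.000364). CD3G had 75.2, 83.4 and 99.7 CPM against 100, 94.5 and 90.7 CPM, and fell by 0.43 log2 (adjusted p = 0.000155). Isotype at 1 µg/ml was the highest isotype value in both genes, and both calls ended without it (adjusted p = 0.89 and 0.33) and without the combination library at 1 µg/ml (0.0637 and 0.0583). THEMIS, a regulator of thymocyte selection, had 39.1, 49.7 and 66.7 CPM against 63.5, 61.2 and 57.8 CPM, a flatter isotype series, and fell by 0.72 log2 (adjusted p = 1.26e-06). GRAP2, an adaptor that binds SLP-76, had 19.8, 28.5 and 36.9 CPM against 35.7, 35.1 and 33.4 CPM and fell by 0.83 log2 (adjusted p = 4.48e-07). For both, the combination at 0.01 µg/ml was the highest of the 6 libraries, and the calls held without either library at 1 µg/ml.

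Secreted products were few at this depth. Of 16 cytokines and chemokines tested, 3 rose at 1 µg/ml and 0 fell, with a median of 0.14, 0.12 and 0.12 log2 from the highest dose to the lowest. Without the isotype library at 1 µg/ml 1 was called, and without the combination library at that dose 2. XCL1 (chromosome 1, 168576473 to 168582077, plus strand), a chemokine that T cells release once activated, had 383, 21 and 3 counts with the combination and 1, 0 and 2 counts with isotype. At 1 µg/ml the ratio was 537 with a wide counting interval of 95.7 to 21248, and at 0.01 µg/ml both arms were at or under the floor of 3 counts. The call at 1 µg/ml (9.46 log2, adjusted p = 2.48e-11) only just stayed without the isotype library at 1 µg/ml (adjusted p = 0.0488). The fitted difference was then 15.67 log2, extrapolated from isotype counts of 0 and 2, so its size cannot be relied on. The arm mean came close to a call (adjusted p = 0.0839).

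XCL2, the near-identical neighbour of XCL1, had 175, 22 and 0 counts against 2, 2 and 5, and was called at 1 µg/ml (adjusted p = 2.12e-08). Reads of XCL1 and XCL2 may have been split between them. IL16, a chemoattractant of CD4 cells, had 52.4, 42.4 and 37.2 CPM against 36.9, 35.3 and 36.5 CPM, with no overlap, and rose by 0.50 ± 0.079 (adjusted p = 0.000134). Leaving out isotype at 1 µg/ml ended both calls (adjusted p = 0.0764 for XCL2 and 0.143 for IL16), and leaving out the combination at that dose ended that of IL16 (0.288).

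Checkpoint and costimulatory genes had 9 of 32 tested members called higher and 0 lower at 1 µg/ml, with a median of 0.22, 0.13 and 0.055 log2 from the highest dose to the lowest. When isotype at 1 µg/ml was left out 6 were called higher, and when the combination at 1 µg/ml was, 4. CRTAM (chromosome 11, 122838500 to 122872639, plus strand), which mediates adhesion of T cells after activation, had 8.46, 1.63 and 0.348 CPM against 0.363, 0.41 and 0.651 CPM. Its lowest-dose value was the lowest of the 6 libraries. It rose by 4.59 ± 0.35 (adjusted p = 8.23e-10), with a ratio of 23.3 (95% interval 13.3 to 44.4) at 1 µg/ml.

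Among costimulatory receptors, CD226 had 25.3, 12.8 and 7.9 CPM against 7.71, 7.57 and 6.77 CPM without overlap, and rose by 1.65 ± 0.13 (adjusted p = 2.12e-09). ICOS, of the CD28 family, had 5.09, 1.77 and 0.557 CPM against 0.643, 0.783 and 0.651 CPM, and rose by 2.91 ± 0.33 (adjusted p = 1.22e-06). CD28 itself had 140, 81.9 and 66.7 CPM against 68.9, 61.3 and 67.7 CPM and rose by 1.00 ± 0.12 (adjusted p = 0.00108). The arms of ICOS and CD28 overlapped at the lowest dose. CD40LG, which signals to CD40 on B cells, had 3.37, 0.776 and 0.487 CPM against 0.279, 0.559 and 0.434 CPM, and rose by 3.19 ± 0.48 (adjusted p = 6.59e-05). Its difference was 3.29 log2 at 1 µg/ml and 0.43 at 0.1 µg/ml, and the ICOS and CD40LG calls ended without either library at 1 µg/ml. The CD28 call ended without the combination library at 1 µg/ml (adjusted p = 0.0685).

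CD5 and CD6, receptors that modulate TCR signals, rose together, by 1.11 ± 0.10 (adjusted p = 1.48e-08) and 1.01 ± 0.086 (adjusted p = 8.22e-09). CD5 had 53.9, 34.3 and 25.3 CPM against 24.7, 23.6 and 23.8 CPM, with no overlap, and CD6 44.4, 31.7 and 22.1 CPM against 22.2, 21.8 and 21.7 CPM. HAVCR2, the inhibitory receptor TIM-3, had 2.66, 0.703 and 0.661 CPM against 0.783, 0.708 and 0.796 CPM, and rose by 1.64 ± 0.42 (adjusted p = 0.0187). Only its highest dose stood above the isotype libraries, and the call ended without either library at 1 µg/ml.

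Interleukin-2 receptor and STAT5 genes had 7 of 21 called higher and 1 lower at 1 µg/ml, none of them without either library at 1 µg/ml, with a median of 0.18, 0.10 and 0.007 log2. IL2RA, the alpha chain CD25, had 8.65, 2.26 and 1.32 CPM against 1.29, 1.68 and 1.56 CPM and rose by 2.56 ± 0.28 (adjusted p = 5.11e-07). STAT5A, a factor activated by that receptor, had 6.19, 4.1 and 3.69 CPM against 3.52, 2.65 and 3.65 CPM, with no overlap, and rose by 0.86 ± 0.22 (adjusted p = 0.0151). Among the 14 genes for cytotoxic proteins and death ligands 3 rose and 0 fell, with a median of 0.30, 0.037 and 0.016 log2, and 1 and 0 were called without the isotype and without the combination library at 1 µg/ml. GZMB, the protease granzyme B whose promoter is printed above, had 6.69, 1.77 and 0.8 CPM against 0.894, 0.671 and 0.832 CPM, inside the isotype range at the lowest dose. It rose by 2.92 ± 0.32 (adjusted p = 5.43e-07), a call lost without the combination library at 1 µg/ml (adjusted p = 0.175).

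NF-kB genes had 8 of 31 called higher and 0 lower at 1 µg/ml, all by small amounts, with a median of 0.15, 0.042 and -0.033 log2, and 0 were called without either library at 1 µg/ml. TNFAIP3, the feedback inhibitor A20, had 155, 137 and 121 CPM against 119, 124 and 126 CPM and rose by 0.37 ± 0.059 (adjusted p = 0.000163). NFKB2, a subunit, had 183, 170 and 148 CPM against 141, 154 and 153 CPM and rose by 0.36 ± 0.064 (adjusted p = 0.000508). In both the isotype value at 1 µg/ml was the lowest of its arm, as in 7 of the 8 called NF-kB genes, beside 40.3% of all genes tested.

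MHC class I and peptide loading genes had 7 of 19 called higher and 1 lower, with a median of 0.19, 0.073 and -0.023 log2. In all 7 the combination at 1 and 0.1 µg/ml was above all 3 isotype libraries, yet 0 were called without isotype at 1 µg/ml, and 1 without the combination library of that dose. HLA-C had 456, 396 and 348 CPM against 349, 357 and 373 CPM and rose by 0.39 ± 0.054 (adjusted p = 2.14e-05). Reads from HLA genes may be shared between them. Of 20 MHC class II genes 2 rose and 0 fell, with a median of 0.064, 0.075 and 0.018 log2, and of 29 B cell activation genes 3 rose and 1 fell. Over all genes tested 2.79% were called higher and 2.99% lower. Without either library at 1 µg/ml 0 class II genes were called, and 1 B cell activation gene was called higher and 0 lower.

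The interferon response list had 4 of 41 called higher and 2 lower, with a median of 0.086, 0.10 and 0.012 log2, and 0 were called higher and 1 lower without either library at 1 µg/ml. GBP2, a guanylate-binding protein, had 3.8, 0.666 and 0.139 CPM against 0.252, 0.149 and 0.217 CPM, the lowest dose under every isotype library, and rose by 4.01 ± 0.48 (adjusted p = 3.01e-06). LAMP3, a lysosomal membrane protein, had 12, 16.4 and 23.6 CPM against 22.4, 20.8 and 20.2 CPM and fell by 0.90 log2 (adjusted p = 1.28e-06). The GBP2 call ended without either library at 1 µg/ml, and the LAMP3 call held without either. BACH2, a repressor of effector differentiation that B and T cells share, had 52.9, 32.6 and 20.9 CPM against 21, 22.1 and 21.3 CPM and rose by 1.31 ± 0.092 (adjusted p = 1.93e-10), with the lowest dose just under the isotype range.

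Genes of immature thymocytes, which Jurkat expresses, were lower at the highest dose more often than higher: 12 of 33 tested fell and 6 rose, with a median of -0.14, -0.046 and 0.10 log2. In all 12 the combination at 1 µg/ml was below every isotype library, and in 11 also at 0.1 µg/ml. If isotype at 1 µg/ml was left out, 2 were called lower and 2 higher, and without the combination library at 1 µg/ml 4 lower and 1 higher. ADA, adenosine deaminase (chromosome 20, 44619522 to 44652233, minus strand), had 117, 195 and 310 CPM against 286, 253 and 252 CPM. It was below every isotype library at 1 and 0.1 µg/ml and above every one at 0.01 µg/ml. The fitted difference was -1.25 ± 0.06 at 1 µg/ml (adjusted p = 1.5e-13) and 0.34 at 0.01 µg/ml (adjusted p = 0.0108), and the arm mean, where these cancel, was -0.42 ± 0.27 (adjusted p = 0.908).

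The recombination genes fell as well. DNTT, terminal transferase, had 4.03, 6.88 and 14.6 CPM against 12, 13.8 and 12.6 CPM and fell by 1.70 log2 (adjusted p = 7.72e-08), a call that held without either library at 1 µg/ml. RAG1 had 1.84, 3.18 and 4.59 CPM against 4.95, 4.4 and 4.78 CPM and fell by 1.32 log2 (adjusted p = 0.00111). RAG2, its partner in V(D)J cutting, had 1.88, 3.14 and 6.71 CPM against 5.98, 5.33 and 5.86 CPM and fell by 1.72 log2 (adjusted p = 5.51e-06). The 2 higher doses lay below every isotype library in all 3 of these genes, and at the lowest dose DNTT and RAG2 lay above them. Leaving out isotype at 1 µg/ml ended the RAG1 and RAG2 calls (adjusted p = 0.626 and 0.143), and leaving out the combination at that dose ended that of RAG1 (0.322).

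T lineage regulators on this list divided. BCL11B, a transcription factor of T cell commitment, had 25, 47.6 and 56.6 CPM against 54.7, 60 and 59.4 CPM and fell by 1.01 log2 (adjusted p = 0.00165). NOTCH3 had 4.58, 9.02 and 11.5 CPM against 11.3, 10.7 and 11 CPM and fell by 1.13 log2 (adjusted p = 6.54e-05). Both calls ended without either library at 1 µg/ml. TOX, a factor linked to sustained TCR signalling, had 106, 82.3 and 73.6 CPM against 76.2, 68.1 and 68.3 CPM and rose by 0.47 ± 0.07 (adjusted p = 6.05e-05), a call lost without the combination library at 1 µg/ml (adjusted p = 0.383). CASC15, a long noncoding RNA on chromosome 6, had 99.7, 55.7 and 34.8 CPM against 31.1, 33.9 and 35.3 CPM and rose by 1.65 ± 0.075 (adjusted p = 8.51e-14), a call that held in each of 19 alternative fits.

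As a group the T markers had 8 of 26 called higher and 9 lower, and the B markers 1 of 30 called higher (SPIB) and 1 lower (BCL11A). The higher T markers included TRAC, CD5, CD6, CD28, GATA3, TCF7 and LEF1. The lower ones were CD4, BCL11B, THEMIS, CD1E, CD7, CD3G, CD3E, SH2D1A and LCK. With the T minus B difference as a covariate, 990 genes were called at 1 µg/ml, 770 of them among the 898, with 6 T markers higher and 10 lower. Without the isotype library at 1 µg/ml 4 T markers were called higher and 1 lower, and without the combination library at that dose also 4 and 1.

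Of the 8 genes with the smallest p in each direction, those not yet described included LYST upward and PMEPA1, MYO7B, VANGL1, CTSG, SLIT1 and CDK6 downward, and each of these was called in all 19 alternative fits. LYST, a regulator of lysosome traffic, had 45.1, 17.5 and 9.5 CPM against 10, 10.6 and 11.2 CPM and rose by 2.11 ± 0.12 (adjusted p = 5.26e-12). PMEPA1, an inhibitor of TGF-beta signalling, had 26.2, 52.9 and 75.8 CPM against 76.2, 76 and 72.4 CPM and fell by 1.44 log2 (adjusted p = 7.59e-11). MYO7B, an unconventional myosin, had 82.3, 173 and 275 CPM against 258, 243 and 225 CPM and fell by 1.57 log2 (adjusted p = 3.72e-10). In these 3 genes the lowest-dose value went past or lay within the isotype range, while the 2 higher doses stood apart from it.

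CDK6, a cyclin-dependent kinase of the G1 phase, had 703, 838 and 1044 CPM against 1074, 1016 and 867 CPM and fell by 0.65 log2 (adjusted p = 3.06e-08). CTSG, a serine protease, had 10.7, 20.7 and 31 CPM against 29.8, 25.7 and 26.3 CPM and fell by 1.35 log2 (adjusted p = 1.11e-08). Both were highest of the arm at the lowest combination dose, and CTSG was there above every isotype library. VANGL1 and SLIT1 fell by 0.79 and 0.95 log2.

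Some of the largest rises, chosen after their values were seen, were in genes near silence with isotype. DMBT1, a scavenger receptor gene, had 12, 3.85 and 0.626 CPM against 0.307, 0.783 and 0.796 CPM and rose by 5.05 ± 0.34 (adjusted p = 1.09e-10). LAIR2, a decoy collagen receptor, had 101, 25 and 2 counts against 1, 1 and 4 counts, a ratio of 141 (95% interval 24.8 to 5643) at 1 µg/ml. At 0.01 µg/ml both genes lay inside the isotype range. ATP9A, a phospholipid flippase, was not silent: it had 118, 24.5 and 9.95 CPM against 9.78, 9.69 and 10.2 CPM, a ratio of 12.1 (10.8 to 13.5) at 1 µg/ml. HDC, histidine decarboxylase, which makes histamine, had 15.8, 5.1 and 1.6 CPM against 1.84, 1.86 and 1.74 CPM and rose by 3.08 ± 0.20 (adjusted p = 4.58e-11). Leaving out isotype at 1 µg/ml ended the ATP9A and LAIR2 calls (adjusted p = 0.3 and 0.143), and those of DMBT1 and HDC held in all 19 alternative fits.

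Of 4 cell cycle lists, 3 had more members called lower than higher at 1 µg/ml, beside 2.99% and 2.79% of all genes tested. Each of the 4 had at most 1 call when either library at that dose was left out. Of 28 mitosis genes 0 were called in either direction at 1 µg/ml by edgeR and 0 by DESeq2, with a median of -0.12, -0.026 and 0.059 log2. Of 36 DNA replication genes 0 rose and 2 fell, too few to set that list apart from all genes. Of 20 genes of the MYC and cyclin list 1 rose and 5 fell, led by CDK6, with a median of -0.075, 0.0086 and 0.078 log2, and 0 were called higher and 1 lower without either library at 1 µg/ml. Replication-dependent histone genes had a median of -0.86, -0.58 and 0.13 log2, the lowest of any list at 1 and 0.1 µg/ml but above 0 at 0.01 µg/ml, with 0 of 27 called higher and 4 lower, and 0 called with DESeq2 or without either library at 1 µg/ml. HIST1H1E, a linker histone gene, had 0.94, 1.41 and 3.23 CPM against 3.05, 2.5 and 2.17 CPM and fell by 1.83 log2 (adjusted p = 0.0145), a call lost without either library at 1 µg/ml. These transcripts mostly lack a poly(A) tail, and the labels name both total and polyA RNA.

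Sterol and fatty acid synthesis genes had 7 of 33 called higher and 1 lower, with a median of 0.064, 0.077 and -0.0092 log2, and none were called without either library at 1 µg/ml. HMGCS1, an early enzyme of the pathway, had 257, 222 and 199 CPM against 190, 214 and 208 CPM and rose by 0.39 ± 0.06 (adjusted p = 9.64e-05). The isotype value at 1 µg/ml was the lowest of its arm in 6 of the 7. Glycolysis had 4 of 26 called higher and 1 lower, amino acid and unfolded protein response genes 2 of 31 and 1, and heat shock genes 0 of 17 and 2. Without isotype at 1 µg/ml 0 genes of these 3 lists were called, and without the combination at that dose 1, of the amino acid list. Calcium and NFAT genes had 1 of 23 called higher and 3 lower, BCL2 family and growth arrest genes 2 of 25 and 1, and trafficking and adhesion genes 2 of 23 and 2. Over all genes tested 2.79% were called higher and 2.99% lower. A count of 1 or 2 is too small to set a list apart from those shares.

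**Figure D4:**
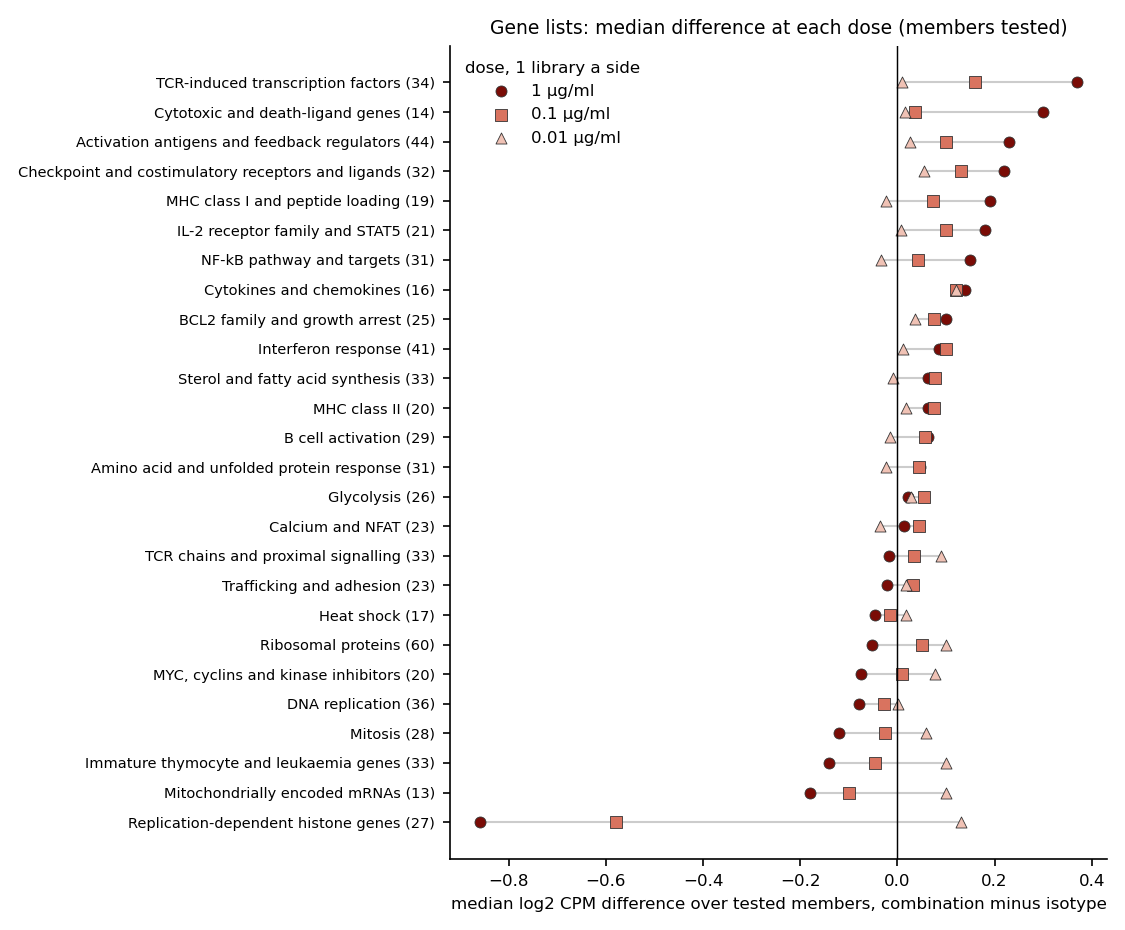
Median over the tested members of each gene list (y axis, number of members in parentheses) of the log2 CPM difference between combination and isotype (x axis) at 1 (dark circles), 0.1 (squares) and 0.01 µg/ml (pale triangles). TCR-induced transcription factors run from 0.0099 to 0.37 and histone genes from 0.13 to -0.86, while the triangles of the lists drawn, which leave out the cell type markers, lie between -0.035 and 0.13.

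For the arm mean no list had a called member. SLC6A13, a transporter of GABA, was the 1 called gene, and since its mean lay under 1 CPM it falls outside the rule for named genes and was chosen after its values were seen. It had 3.92, 1.18 and 0.243 CPM with the combination and 0.279, 0.186 and 0.109 CPM with isotype. The ratio was 14 (95% interval 7.31 to 30.1), 6.35 (2.45 to 20.9) and 2.24 (0.512 to 13.4) from the highest to the lowest dose, and the arm mean differed by 3.08 ± 0.41 log2 (adjusted p = 0.00177). All 3 doses went the same way, but the lowest combination value lay within the isotype range. The call was lost without the combination library at 1 µg/ml and without the isotype library at 1 µg/ml.

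Genes higher in all 3 combination libraries than in all 3 isotype libraries numbered 666 (4.29%), and genes lower in all 3 numbered 652 (4.2%). Among the 433 genes called higher at 1 µg/ml 93 were of the first kind, and among the 465 called lower 21 were of the second. DDIT4, an inhibitor of mTOR signalling, came nearest to a call for the arm mean after SLC6A13 among the genes described here. It had 31.5, 29.3 and 24.7 CPM against 21.5, 21.5 and 21.3 CPM, without overlap, differences of 0.55, 0.45 and 0.21 log2 and an arm mean of 0.41 ± 0.071 (adjusted p = 0.0575). In the other direction, HKDC1, a hexokinase relative, had 0.548, 1.26 and 1.7 CPM against 1.76, 2.54 and 2.17 CPM, and an arm mean of -0.88 ± 0.24 (adjusted p = 0.228).

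The 16 genes called at 0.01 µg/ml were mostly those that also differed at 1 µg/ml, with the sign turned. Of the 15 higher at 0.01 µg/ml, 12 were called lower at 1 µg/ml, and the 1 lower, RPS2P5, was called higher there. RPL37, a ribosomal protein, had 608, 628 and 782 CPM with the combination and 861, 653 and 579 CPM with isotype, so the isotype arm climbed with dose while the combination arm fell. Its differences were -0.50, -0.058 and 0.43 log2, and the fits gave -0.51 ± 0.066 at 1 µg/ml (adjusted p = 8.94e-06) and 0.43 at 0.01 µg/ml (adjusted p = 0.00752). RPL28 had 1033, 1059 and 1144 CPM against 1296, 989 and 944 CPM, the same crossing.

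Of 60 ribosomal protein genes tested, 8 were called lower at 1 µg/ml and 2 higher (RPL34 and RPS12), against 2.99% and 2.79% of all genes. The crossing was seen in each of the 8 called lower. In all 8 isotype at 1 µg/ml was the highest isotype library, in 0 of the 8 was the combination at 1 µg/ml below every isotype library, and the isotype arm had the wider range (median 0.43 against 0.22 log2). In the 16 transcription factors called higher, the combination arm had the wider range in all 16 (median 1.43 against 0.15 log2). The combination range was the wider in 53% of all genes tested and in 78.1% of the 465 called lower at 1 µg/ml. Isotype at 1 µg/ml was the highest of its arm in 36.8% and 75.7% of them. The same libraries chose the called genes, so these ranges describe them and test nothing. Without isotype at 1 µg/ml 0 ribosomal protein genes were called. Some genes whose difference changed sign had the wider range in the combination arm, but the ranges of all such genes were not compared as a set. ADA had isotype values of 252 to 286 CPM and combination values of 117 to 310 CPM. MYO7B, not called at 0.01 µg/ml (adjusted p = 0.134, edgeR), had 225 to 258 and 82.3 to 275 CPM. Of the 12 immature thymocyte genes called lower at 1 µg/ml, all 12 had the wider range in the combination arm. Only 1 member of that list was called at 0.01 µg/ml. In 9 of the 12 the combination at 0.01 µg/ml was above every isotype library, against 20.8% of all genes tested and 32.5% of the 465 called lower. The 15 genes higher at 0.01 µg/ml had a median length of 1142 bp, against 4421 bp over all genes tested, and 12 of them were shorter than that. With a correction for GC content and length 32 genes were called at 0.01 µg/ml, 14 of them among the 16. Without the combination library at 0.01 µg/ml 0 genes were called at that dose, and 0 also when the balance of T and B markers was added to the model. Without the isotype library at 1 µg/ml 7 were called, 5 of them among the 16. That library was also the deepest of the 6, and the part of depth in these calls was not tested.

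**Figure D5:**
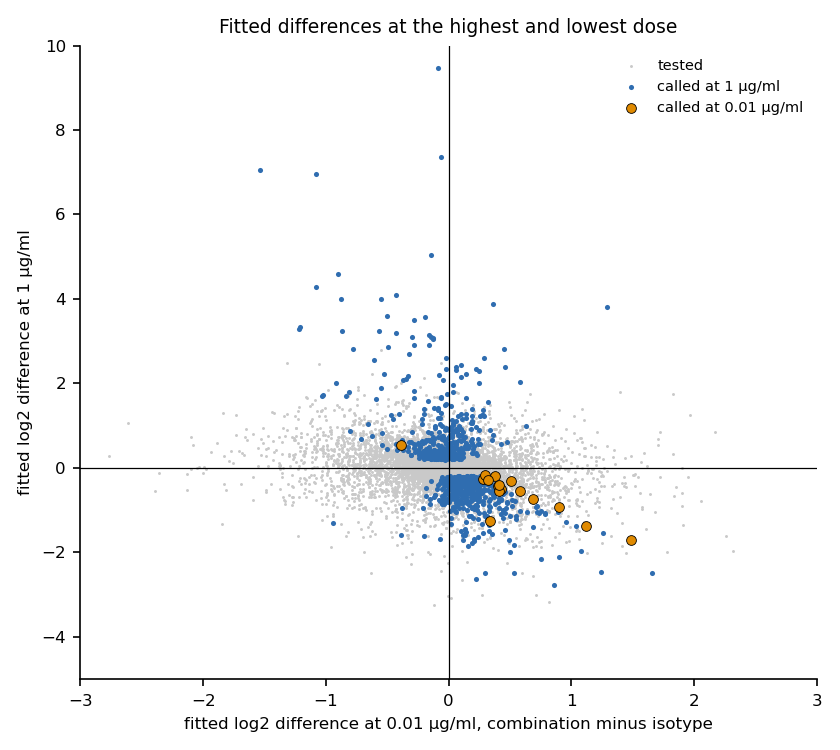
Fitted log2 difference between combination and isotype at 0.01 µg/ml (x axis) and at 1 µg/ml (y axis) for 15535 genes (grey), with genes called at 1 µg/ml in blue and the 16 called at 0.01 µg/ml in orange. Both axes come from the same lines; the rises at 1 µg/ml lie on both sides of 0 at the lowest dose, and 15 of the orange points lie to the right of 0 and below it.

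The authors' deposited tables compare each combination library with all 3 isotype libraries at once. They give an adjusted p under 0.05 for 250 of 15003 genes at 1 µg/ml, 164 higher and 86 lower, for 27 of 15044 at 0.1 µg/ml, 23 higher and 4 lower, and for 0 of 15082 at 0.01 µg/ml. Of these, 238 of the 250 and all 27 were also among the 898 called here at 1 µg/ml, from the same libraries. Of the 898 genes, 238 had an adjusted p under 0.05 in the authors' table at 1 µg/ml. Several genes described above as called did not. That table gives log2 fold changes of -0.28 for CD3E (adjusted p = 0.257), -0.17 for MYC (0.813) and -0.19 for RPL37 (0.999). It gives 0.30 for NFKB2 (0.0698) and 0.92 for STAT5A (0.153). For EGR1 the authors' deposited table gives log2 fold changes of 2.21, 1.20 and 0.14 from the highest to the lowest dose, and for ADA -1.17, -0.44 and 0.24. For DDIT4 the authors' deposited table gives 0.56, 0.45 and 0.21, with an adjusted p of 0.00602 at the highest dose.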

How the data were processed

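RNA-seq libraries of the co-cultures were analysed from the authors' deposited table of raw read counts per gene symbol. The submitters' processing notes name GRCh38, DESeq2, featureCounts (Subread 1.5.2), STAR 2.5.2b and Trimmomatic 0.36. The annotation release and the strand setting were not given in the sources used here, so overlapping genes may share reads. The authors' deposited tables also give log2 fold changes and adjusted p-values for each combination library against the 3 isotype libraries, per the file headers. Per the labels the molecule is polyA RNA, and their protocol names total RNA. The count table holds 4 columns that no sample's labels match, and these were not used.

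Of 55782 gene symbols, 15535 passed a filter on low counts (edgeR 4.0.16, filterByExpr, minimum count 10). All 12 libraries were scaled by TMM and shared 1 estimate of the spread in the quasi-likelihood fits, with Benjamini-Hochberg adjustment of the p-values over the 15535 genes. The arm mean came from arm plus dose as a factor (6 residual degrees of freedom). The fitted values at 1 and 0.01 µg/ml came from 1 line per arm on log10 dose (4 residual degrees of freedom). Differences at single doses used a prior count of 2. Intervals of ratios are exact at 95% and cover counting error only. Alternatives were DESeq2 1.42.0, other scaling, filters, covariates and libraries left out. The fits were tested on simulated data. The T minus B marker difference is the mean log2 CPM over 26 T markers minus that over 30 B markers.

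The members and gene lists were chosen with earlier results of these data known. The rule for named genes takes PDCD1, CD274, LAG3, CD69, IL2 and IFNG, the 8 smallest p in each direction at 1 µg/ml, and up to 2 called members of each list, 66 genes in all. Its parts on genes called for the arm mean ask for at least 1 CPM or for no dependence on dose. Other members were chosen after their values were seen. Some genes that the rule takes are not reported here.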

Additional observations from a re-analysis of the deposited data

Results flagged for a closer look

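For 13 genes the difference between combination and isotype was called at both 1 and 0.01 µg/ml with opposite sign (Benjamini-Hochberg adjusted p from the quasi-likelihood test of edgeR). The change between these doses was called too. It is the difference of those fitted values from the same lines, so its call adds no separate evidence. From 0.01 to 1 µg/ml the log2 difference changed by -1.59 in ADA, by -0.94 in RPL37 and by -0.61 in RPL28, the genes described above. It changed by -0.94 in IGHV3-21, an immunoglobulin segment, by -0.82 in POLR2L, an RNA polymerase subunit, by -0.55 in H1FX, a linker histone, and by -0.82 in PPDPF. Pseudogenes and loci without a name of their own made up the rest. The change was -1.13 in RPL10P9, -3.19 in RPL13AP25, -2.48 in PTMAP4, -1.42 in HLA-DRB6, -1.82 in RP11-864N7.2 and 0.93 in RPS2P5. Reads of such pseudogenes may be shared with their parent genes. PTMAP4, for example, had 14.3, 21.1 and 36 CPM with the combination at 1, 0.1 and 0.01 µg/ml and 37.7, 20.7 and 17.7 CPM with isotype, so the arms moved in opposite directions.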

How the results depend on the processing

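No condition has a replicate, so the count tests rest on the spread around the dose models. For the arm mean, 1 gene was called. DESeq2 called 18 and no filter on low counts 145. A mean of at least 1 CPM gave 0, the 6 libraries alone 0, the marker covariate 4, no dose term 0 and the middle dose of the lines 231. Leaving out 1 library gave 0 to 269, with 269 when the combination at 0.01 µg/ml was left out and 56 when isotype at that dose was. At 1 µg/ml, DESeq2 called 373 in place of 898, and leaving out 1 library gave 77 to 1101. At 0.01 µg/ml, in place of 16, no filter gave 122, the marker covariate 0, the GC and length correction 32 and leaving out 1 library 0 to 59. Between 1 and 0.01 µg/ml 719 genes were called, 290 with DESeq2 and 34 to 955 with 1 library left out. The cause of these changes was not tested. The T minus B difference of 0.0605 was -0.0952 by the median of the markers.

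Some arm means that were not called changed sign when 1 library was left out. Their lowest and highest values were -0.053 and 0.10 for CD274, -0.16 and 0.027 for BID, -0.053 and 0.33 for ITGAE, -0.16 and 0.01 for MAX, and -0.25 and 0.14 for HIST1H4C. They were -0.02 and 0.15 for PFKM, -0.027 and 0.12 for PDIA6, -0.35 and 0.16 for HSPB1, -0.14 and 0.058 for HSF1, and -0.23 and 0.12 for RPL37. They were -0.15 and 0.11 for RPS27 and -0.20 and 0.016 for MT-ND4L. PDCD1 at 1 µg/ml ranged from -0.32 to 0.03. Of the values of the 66 genes at 1 µg/ml under the alternatives, 1096 kept their direction and side of the threshold and 98 lost the call. The arms are matched by dose, and the arm mean, with dose as a factor, is that matched analysis; without the dose term it called 0 genes. Beyond the match by dose, no paired analysis was possible because the labels give no replicate numbers.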
